A study of Mus musculus with 6 samples.

Results

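Lymphatic and scavenger endothelial markers were examined in cultured mouse lung endothelium as 7 named genes, Prox1, Lyve1, Pdpn, Reln, Mmrn1, Stab1 and Stab2, out of 30055 gene symbols in the count table. All 7 passed the filter on low counts and were tested among 15035 genes. The cells came from Ch25h knockout mice of strain C57BL6, labelled female and 3 weeks old, so all 3 groups carried the knockout of Ch25h, the enzyme that makes 25-hydroxycholesterol. The vehicle group received no vesicles (PBS in the series text). The TEV group received extracellular vesicles of MC38 mouse colorectal tumour cells at 20 µg per ml for 12 h. The TEV plus reserpine group received reserpine, a blocker of vesicular monoamine transport, at 10 µM for 8 h and then the same vesicles. The design text of the series may also mean that every culture had reserpine beforehand, and the sample labels were followed. Each group had 2 libraries. No group received reserpine alone among the libraries analysed, so reserpine was compared only in the presence of vesicles. Nothing in the labels says that the libraries of a group came from separate mice or cultures, and p-values then measure only the spread between these libraries, which may be technical. Which part of Ch25h was deleted, how endothelium was purified and how often cells were passaged are not given in the sources used here.

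Lymphatic vessels are lined by endothelial cells that arise mainly from veins when the homeodomain factor PROX1 is switched on, and PROX1 is needed afterwards to hold that identity. The surface of these cells carries LYVE1, a receptor for hyaluronan, and podoplanin (Pdpn), a mucin-type glycoprotein that binds CLEC-2 on platelets. Reelin (Reln) and multimerin-1 (Mmrn1) are secreted proteins that lymphatic endothelium makes and most blood endothelium does not. Stabilin-1 and stabilin-2 (Stab1, Stab2) are large scavenger receptors of sinusoidal and some lymphatic endothelium, which take up modified proteins and, for stabilin-2, hyaluronan. Several of these genes are not restricted to endothelium: Lyve1 and Stab1 are also made by resident macrophages, and Pdpn by fibroblasts, mesothelium and alveolar type I cells.

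Libraries held 22270657 to 81225627 estimated counts. Values are CPM, counts relative to the library size after scaling by the TMM method, and a gene was called where edgeR's quasi-likelihood test gave a Benjamini-Hochberg adjusted p under 0.05. Ch25h itself was at 0.3166 to 1.063 CPM (9.092 to 40.79 estimated counts), with no wild-type library analysed here to set this against. The endothelial marker Cdh5 (VE-cadherin) was at 1748 to 2827 CPM in the 6 libraries, but markers of other cells were high in the vehicle libraries. The 9 fibroblast markers summed to between 2812 and 3244 CPM with vehicle, 55.19 to 64.55 with TEV and 77.51 to 96.39 with TEV plus reserpine, while the 12 pan-endothelial markers summed to between 4541 and 4576, 8266 and 8384, and 8834 and 8900 CPM. With TEV these endothelial genes did not rise as a list. There 7 were higher, among them Emcn (2.84) and Pecam1 (1.42), beside 25.1% of all genes tested. The 5 lower, beside 24.6% of all genes, were Vwf (-3.02), Cldn5 (-2.93), Kdr (-1.93), Ramp2 (-1.67) and Tek (-0.31). For TEV plus reserpine against vehicle 8 were higher, 1 lower and 3 not called (median 0.63). Of all genes, 19.1% were higher and 19.9% lower there. The 8 pericyte and smooth muscle markers summed to between 1976 and 1998 CPM with vehicle. Their sum was 771 and 879 CPM in the TEV libraries, and 840.1 to 918.2 in those with TEV plus reserpine. Most of the sum with TEV was Tagln, at 648.3 and 719 CPM, which fell by only 0.29 on the log2 scale. All 8 were called lower with TEV, at a median of -3.38, beside 24.6% of all genes tested. Fewer cells of a type and less RNA per cell cannot be told apart in such bulk libraries, and the part of these other cells in the changes against vehicle was not tested. The lung epithelial markers summed to only 3.183 to 4.958 CPM in the 6 libraries, and their members differed. Of 6 tested, 2 were lower with TEV (24.6% of all genes): Aqp5 (edgeR adjusted p = 0.0223) and Nkx2-1 (0.00276). These averaged 0.63 and 0.46 CPM with vehicle. Both were also lower with TEV plus reserpine against vehicle, where Hopx was higher (1.66, edgeR adjusted p = 0.0311).

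**Figure D1:**
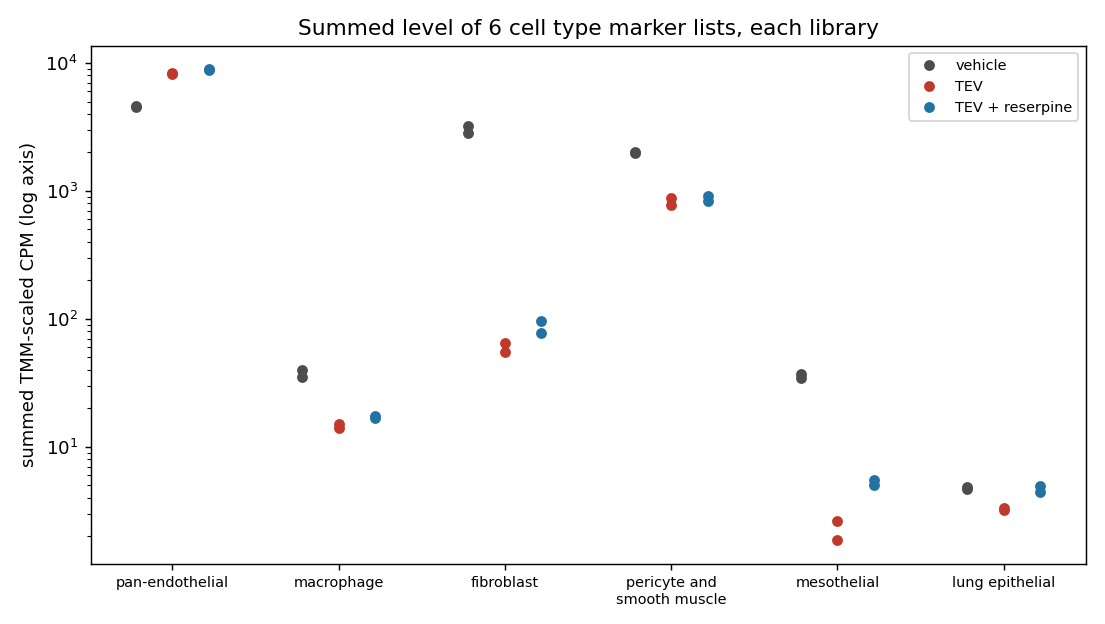
Summed TMM-scaled CPM (log axis) of 6 cell type marker lists, with 1 point per library and 2 libraries per group. Fibroblast markers lay between 2812 and 3244 CPM with vehicle and under 100 CPM in the 4 libraries with vesicles, while pan-endothelial markers lay higher in those 4 libraries.

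The 7 markers did not move as a block. With TEV, Prox1, Lyve1, Reln and Mmrn1 fell, Stab1 rose, and Pdpn and Stab2 did not pass the test, all on TMM-scaled library size. Adding reserpine lowered Prox1 and Reln further, lowered Pdpn, and raised Mmrn1, Lyve1 and Stab2 over TEV. Against vehicle, TEV plus reserpine left Reln, Pdpn and Prox1 lower and Stab1 and Stab2 higher. Scaling to endothelial markers, described further on, lowered the median of all genes against vehicle. Stab1 was then not called higher in either vesicle group, and with TEV Pdpn and Stab2 became called lower. For TEV plus reserpine against vehicle, Mmrn1 and Lyve1 became called lower. Calls moved in this way are no result about a single marker. The markers called for TEV against vehicle numbered 5 of 7 (1 higher and 4 lower), beside 49.7% of all genes tested (25.1% higher and 24.6% lower). For TEV plus reserpine against TEV 6 of 7 were called (3 higher and 3 lower), beside 31.6% (15.7% and 16.0%). For TEV plus reserpine against vehicle 5 of 7 were called (2 higher and 3 lower), beside 39.1% (19.1% and 19.9%). These shares are large, so a call by itself is not unusual in these libraries. The median log2 change of the 7 markers was -0.44, -0.02 and -0.17, beside 0.01, 0.00 and -0.02 for all genes tested. The comparisons share libraries in pairs and are not independent of one another.

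**Figure D2:**
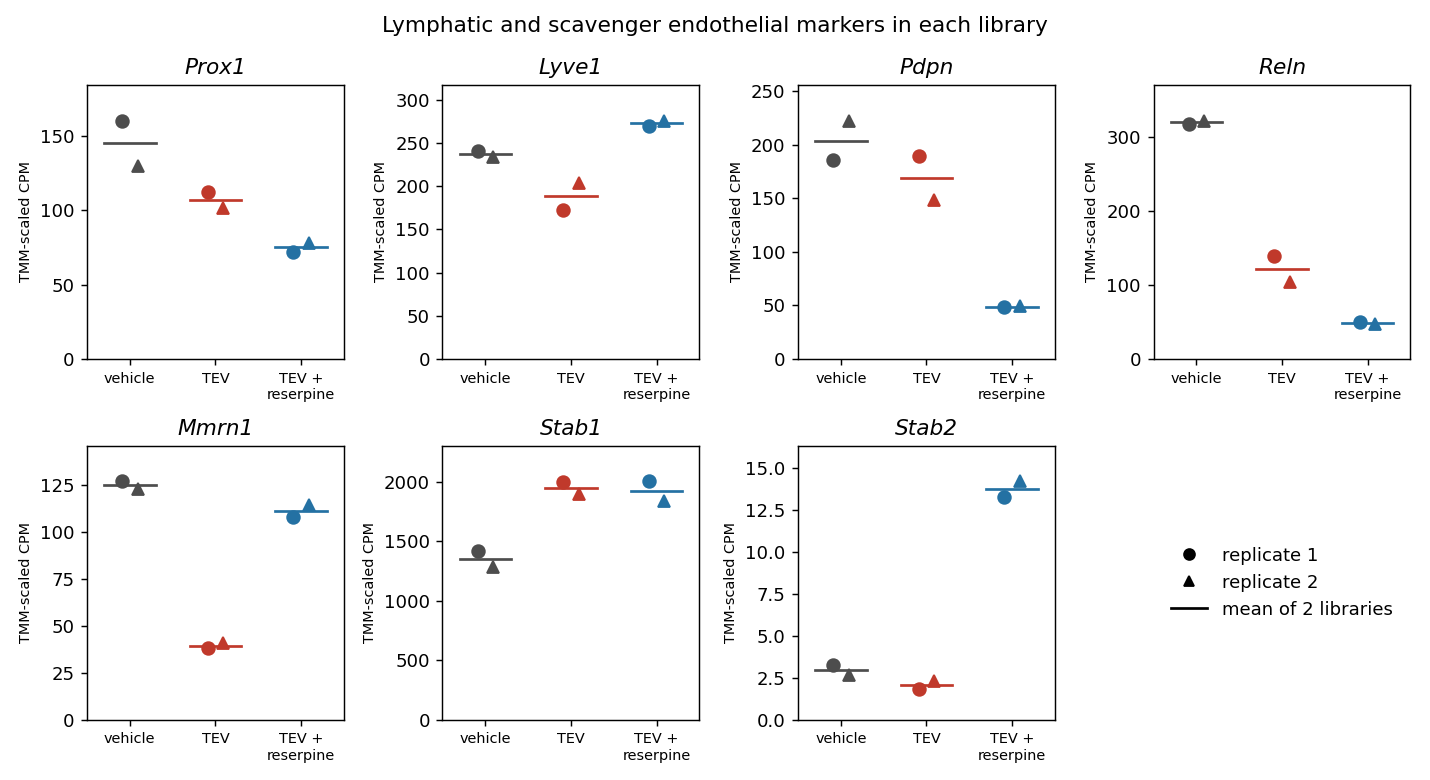
TMM-scaled CPM (vertical axis, from 0) of each marker in the 6 libraries, with circles for replicate 1, triangles for replicate 2 and a line at the mean of 2 libraries. Reln and Prox1 were highest with vehicle and lowest with TEV plus reserpine, Mmrn1 was low with TEV alone, and Stab2 was high with TEV plus reserpine alone.

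Prox1, the transcription factor that specifies lymphatic endothelium, was at 160.4 and 129.9 CPM with vehicle, 112.7 and 101.9 with TEV, and 71.96 and 78.37 with TEV plus reserpine. No library of one group overlapped those of another, and the levels stepped down from group to group. The log2 change was -0.44 ± 0.12 (SE) for TEV against vehicle (edgeR adjusted p = 0.022), -0.51 ± 0.12 for TEV plus reserpine against TEV (0.0211) and -0.95 ± 0.12 for TEV plus reserpine against vehicle (0.00148). The call with TEV ended without vehicle replicate 1 (edgeR adjusted p = 0.14) or TEV replicate 2 (0.0983). The call for reserpine over TEV ended without TEV replicate 1 (0.0988) and without either library of TEV plus reserpine (0.102 and 0.0616). The fall from vehicle to TEV plus reserpine held in each of 15 other analysis settings (log2 change -1.09 to -0.79). Prox1 lies on chromosome 1 (GRCm38, chr1:190118035-190170714, minus strand), and its exons overlap an antisense RNA whose reads unstranded counting would not tell apart.

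Lyve1, the hyaluronan receptor by which lymphatic vessels are usually stained, was at 241.2 and 233.4 CPM with vehicle, 172.8 and 203.5 with TEV, and 270.1 and 275.9 with TEV plus reserpine. The TEV libraries were the lowest and those with reserpine the highest, without overlap. The log2 change with TEV was -0.33 ± 0.09 (edgeR adjusted p = 0.0239), a call that ended without vehicle replicate 1 (0.115), vehicle replicate 2 (0.075) or TEV replicate 1 (0.113). It rose with reserpine over TEV by 0.54 ± 0.10 (edgeR adjusted p = 0.00828). Against vehicle, TEV plus reserpine gave 0.20 (95% interval -0.02 to 0.43, edgeR adjusted p = 0.135). Macrophages make Lyve1 as well, and 11 of the 12 macrophage markers were in the table, with a sum of 35.21 to 39.97 CPM with vehicle, 13.98 to 15.19 with TEV and 16.79 to 17.37 with TEV plus reserpine. Of the 8 tested, 1 was higher and 4 lower with TEV, and 1 was higher and none lower with reserpine over TEV. Against vehicle, TEV plus reserpine had 1 higher and 6 lower. Beside these stand 49.7%, 31.6% and 39.1% of all genes tested that were called. Cd68, a lysosomal protein gene of macrophages that other cells also express, rose in step from 3.22 ± 0.510 to 5.80 ± 0.744 and 8.97 ± 0.139 CPM (SD, n = 2 each) and was the gene called higher each time (0.62 for reserpine over TEV, edgeR adjusted p = 0.0495). Lyz2, the lysozyme gene, fell from 26.8 ± 3.31 to 4.008 ± 1.203 CPM with TEV and was at 4.79 ± 0.455 with TEV plus reserpine. The complement genes C1qb and C1qc were each at under 1.2 CPM with vehicle and under 0.1 CPM in the other libraries, with C1qc at 0 in 1 of them, and Csf1r averaged 2.65, 3.31 and 2.57 CPM without a call. The part of macrophages in the Lyve1 values was not tested. The gene lies at chr7:110850607-110863239 (GRCm38, minus strand).

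Reln, which encodes the secreted glycoprotein reelin, had the largest fall among the markers from vehicle to TEV plus reserpine, and with TEV alone the second largest after Mmrn1. Its level was 317.6 and 321.7 CPM with vehicle, 139 and 104 with TEV, and 50.34 and 47.02 with TEV plus reserpine. The 3 groups were separate, with the vehicle libraries highest. Reln was 2.63-fold lower with TEV than with vehicle (log2 change -1.40 ± 0.14, edgeR adjusted p = 0.000316), and 2.49-fold lower again with TEV plus reserpine than with TEV (-1.32 ± 0.14, 0.00153). From vehicle to TEV plus reserpine the fall came to 6.57-fold (log2 change -2.72 ± 0.14, edgeR adjusted p = 5.48e-05). All of these calls held in each of the 15 other settings. The exons of Reln overlap an antisense RNA whose reads unstranded counting would not tell apart. Fibroblast markers fell beside Reln from vehicle to TEV, and their part in that fall was not tested. From TEV to TEV plus reserpine their sum went from between 55.19 and 64.55 CPM to between 77.51 and 96.39.

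Pdpn, the podoplanin gene, was at 185.5 and 222.5 CPM with vehicle and at 189.8 and 148.8 with TEV, so these libraries overlapped. With TEV plus reserpine it was at 48.11 and 49.61 CPM, below all 4 others. TEV against vehicle gave a log2 change of -0.27 (95% interval -0.60 to 0.06, edgeR adjusted p = 0.148), although with library size alone in place of TMM scaling the gene was called lower (-0.40, 0.0433), as it was without TEV replicate 1 (-0.43, 0.0444). Pdpn fell 3.46-fold with TEV plus reserpine against TEV (log2 change -1.79 ± 0.14, edgeR adjusted p = 0.000691) and 4.17-fold against vehicle (-2.06 ± 0.15, 0.000139). Fibroblasts and mesothelium also express Pdpn. The mesothelial markers summed to between 34.19 and 37.23 CPM with vehicle, 1.86 and 2.635 with TEV, and 5.003 and 5.512 with TEV plus reserpine. The part of these cells in the Pdpn values was not tested.

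The bases just upstream of Pdpn and Reln are shown because these were the markers that reserpine lowered most over TEV. They are 250 bases of RefSeq sequence (GRCm38.p6) on the gene's own strand, at chr4:143299565-143299814 for Pdpn and chr5:22344706-22344955 for Reln, and both genes are on the minus strand (chr4:143267431-143299564 and chr5:21884454-22344702). Capitals mark matches on either strand to 5 searched motifs, which were the GC box GGGCGG, the TATA motif TATAAA, the nuclear receptor half-site AGGTCA, the palindromic E-box CACGTG and the NFAT core TGGAAA.
Pdpn: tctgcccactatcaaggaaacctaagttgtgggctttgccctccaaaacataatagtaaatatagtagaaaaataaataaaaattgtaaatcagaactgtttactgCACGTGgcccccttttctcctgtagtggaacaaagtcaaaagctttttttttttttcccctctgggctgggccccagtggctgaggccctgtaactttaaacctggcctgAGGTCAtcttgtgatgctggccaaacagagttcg
Reln: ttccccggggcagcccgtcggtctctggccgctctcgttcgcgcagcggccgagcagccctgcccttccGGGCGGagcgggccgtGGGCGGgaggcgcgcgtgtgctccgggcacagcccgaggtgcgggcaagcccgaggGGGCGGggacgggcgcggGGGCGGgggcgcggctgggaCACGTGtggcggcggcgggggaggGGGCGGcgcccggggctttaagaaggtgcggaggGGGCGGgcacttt
The Reln stretch was 80.0% G and C and held 6 GC boxes, whereas the Pdpn stretch was 43.2% G and C and held none. Among 32536 such promoter stretches the median was 52.4%, and 33.0% held a GC box. Both stretches held 1 palindromic E-box, found in 6.04% of promoters, and Pdpn also held 1 nuclear receptor half-site, found in 14.0%. The 250 bases upstream of Prox1, which was also lower with reserpine over TEV, held no palindromic E-box. These matches describe the letters and do not show binding.

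Mmrn1, which encodes multimerin-1, a secreted protein of the EMILIN and multimerin family, was at 127.1 and 123 CPM with vehicle, 38.23 and 40.7 with TEV, and 108 and 114.6 with TEV plus reserpine. The TEV libraries stood well below the other 4. Mmrn1 fell 3.17-fold with TEV (log2 change -1.66 ± 0.08, edgeR adjusted p = 2.25e-05) and was 2.82-fold higher with TEV plus reserpine than with TEV (1.49 ± 0.08, 0.0003). Both calls held in each of the 15 other settings. TEV plus reserpine against vehicle gave -0.17 (95% interval -0.36 to 0.02, edgeR adjusted p = 0.143), so a remaining deficit of up to 0.36 on the log2 scale lies within the interval. Its paralog Mmrn2, a protein of the endothelial extracellular matrix, was not called with TEV (0.11, edgeR adjusted p = 0.389) and was higher with TEV plus reserpine than with TEV (0.70, 0.00345). Mmrn1 lies at chr6:60924976-60989378 (GRCm38, plus strand).

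Stab1, the stabilin-1 gene, was the most abundant of the markers, with 1417 and 1282 CPM in vehicle, 2002 and 1898 in TEV, and 2003 and 1841 in TEV plus reserpine. The vehicle libraries were below the other 4, and the libraries with and without reserpine overlapped. Stab1 rose with TEV, at a log2 change of 0.53 ± 0.08 (edgeR adjusted p = 0.00208), and was 0.51 ± 0.08 higher with TEV plus reserpine than with vehicle (0.00358). Neither call holds relative to endothelial markers. That scaling lowers all genes by nearly the same amount, so the loss is no result about Stab1 by itself. Reserpine added to vesicles gave -0.02 (95% interval -0.21 to 0.17, edgeR adjusted p = 0.865). Macrophages make Stab1 too, and their part in its level was not tested. The summed macrophage markers given with Lyve1 were lower in the vesicle libraries, while Cd68 was higher there, by 0.85 with TEV and 1.47 with TEV plus reserpine against vehicle. The exons of Stab1 overlap Nt5dc2 on the opposite strand, which was at 6.861 to 14.03 CPM.

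Stab2, which encodes the hyaluronan-clearing receptor stabilin-2 of liver and spleen sinusoids, was at 3.274 and 2.681 CPM with vehicle and 1.832 and 2.317 with TEV. With TEV plus reserpine it was at 13.31 and 14.21 CPM, from 298.2 and 494.6 estimated counts. Those 2 libraries stood far above the other 4. The exons of Stab2, like those of Prox1 and Reln, overlap an antisense RNA whose reads unstranded counting would not separate. Stab2 was 6.58-fold higher with TEV plus reserpine than with TEV (log2 change 2.72 ± 0.21, edgeR adjusted p = 0.000671) and 4.60-fold higher than with vehicle (2.20 ± 0.21, 0.000395), and both calls held in each of the 15 other settings. TEV against vehicle gave -0.52 (95% interval -1.01 to -0.02) and did not pass after adjustment (edgeR adjusted p = 0.0775), except with library size alone (-0.64, 0.0439). Per kb of the longest coding transcript, the level of Stab1 was 445 and 492 times that of Stab2 with vehicle. It was 1120 and 843 times with TEV, and 155 and 133 times with TEV plus reserpine. The pair therefore drew nearer in level with reserpine, while Stab1 itself was not called. The size of the ratio rests on the transcript used. Per kb of its mean coding transcript Stab1 was at 472.1 and 427.1 CPM with vehicle, against 177.1 and 160.2 per kb of the longest.

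The upstream sequences of the 2 stabilin genes are shown because these paralogs parted in their response to reserpine. They come from RefSeq (GRCm38.p6), at chr14:31168642-31168891 for Stab1 and chr10:87008026-87008192 for Stab2, and both genes are on the minus strand (chr14:31139013-31168641 and chr10:86841198-87008025). The Stab2 stretch has 167 bases because bases inside a GENCODE transcript were left off. Capitals mark the same 5 motifs.
Stab1: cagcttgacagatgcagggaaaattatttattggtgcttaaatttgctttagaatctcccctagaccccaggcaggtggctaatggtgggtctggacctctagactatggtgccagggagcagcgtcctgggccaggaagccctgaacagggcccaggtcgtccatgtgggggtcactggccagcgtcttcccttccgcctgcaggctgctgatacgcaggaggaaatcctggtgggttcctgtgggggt
Stab2: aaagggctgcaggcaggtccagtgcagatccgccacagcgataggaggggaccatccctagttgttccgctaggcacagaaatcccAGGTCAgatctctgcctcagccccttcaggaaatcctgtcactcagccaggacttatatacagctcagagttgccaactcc
The Stab1 stretch was 57.2% G and C and held none of the 5 motifs in these letters. The Stab2 stretch was 55.7% G and C and held 1 nuclear receptor half-site, which 9.48% of promoter stretches of that length held.

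**Figure D3:**
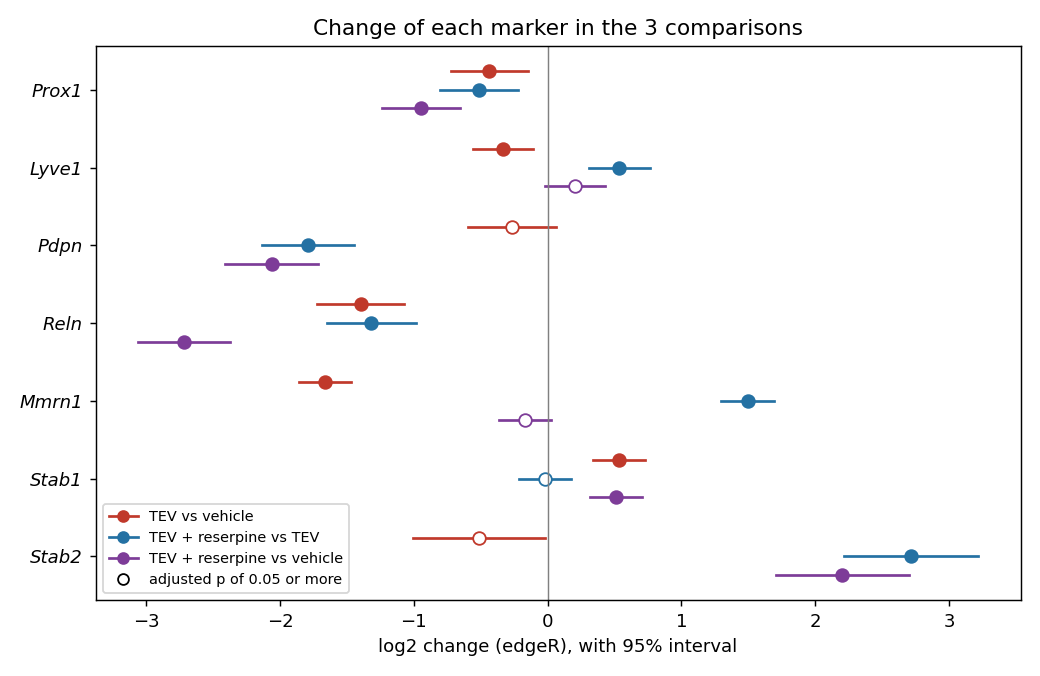
Log2 change of each marker (horizontal axis) by edgeR with its 95% interval in 3 comparisons, where open points have an adjusted p of 0.05 or more. Reln and Prox1 lie left of 0 in all 3 comparisons, Mmrn1 lies at -1.66 with TEV and at 1.49 for reserpine over TEV, and Stab2 lies at 2.72 for reserpine over TEV.

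Levels of different genes were compared per kb of the longest coding transcript in GENCODE M21. In vehicle libraries the order was Stab1 (169 ± 11.9 CPM per kb, SD, n = 2), Pdpn (112 ± 14.4), Lyve1 (82.0 ± 1.92), Mmrn1 (27.9 ± 0.649), Reln (27.3 ± 0.245), Prox1 (18.3 ± 2.73) and Stab2 (0.362 ± 0.0510). Mmrn1 and Reln overlapped there, and the other neighbours did not. With TEV the order became Stab1 (244 ± 9.17), Pdpn (93.2 ± 15.9), Lyve1 (65.0 ± 7.51), Prox1 (13.6 ± 0.969), Reln (10.4 ± 2.11), Mmrn1 (8.82 ± 0.390) and Stab2 (0.252 ± 0.0417), with Reln and Mmrn1 again overlapping. With TEV plus reserpine, Lyve1 (94.4 ± 1.43) stood second after Stab1 (240 ± 14.4), and Pdpn (26.9 ± 0.584) came down to the level next to Mmrn1 (24.9 ± 1.05). Below them were Prox1 (9.50 ± 0.573), Reln (4.16 ± 0.200) and Stab2 (1.67 ± 0.0773). The place of Prox1 rests on which transcript is used: per kb of its mean coding transcript the vehicle libraries gave 33.55 and 27.17, level with Reln (28.13 and 28.49) and Mmrn1 (28.41 and 27.50).

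**Figure D4:**
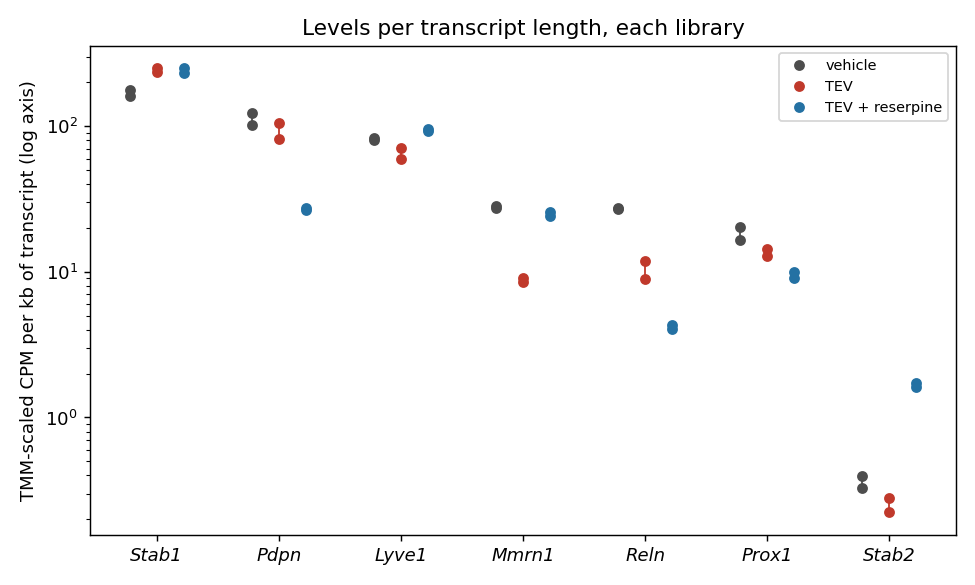
TMM-scaled CPM per kb of the longest coding transcript (log axis) for each marker, ordered by the vehicle level, with 1 point per library. Stab1 is highest and Stab2 lowest in each group, and Pdpn drops from next to Lyve1 in vehicle to next to Mmrn1 with TEV plus reserpine.

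Since the sum of the endothelial markers, though not each of them, was higher and fibroblast markers were lower in the vesicle libraries, the changes were also computed relative to Cdh5, or to the sum of the 12 pan-endothelial markers, in place of library size. Both scalings were chosen after the values were seen. Over all genes tested, the median for TEV against vehicle went from 0.01 to -0.36 (Cdh5) and -0.86 (sum). It went to -0.32 and -0.09 for TEV plus reserpine against TEV, and to -0.71 and -0.98 for TEV plus reserpine against vehicle. The genes called lower became 42.9% (Cdh5) and 69.9% (sum) of all genes tested with TEV, 37.4% and 21.1% for reserpine over TEV, and 65.4% and 75.5% for TEV plus reserpine against vehicle. Those called higher became 12.2% and 5.62%, 6.91% and 12.1%, and 5.41% and 3.73%. Each scaling thus shifted all genes of a comparison by nearly the same amount, and a marker's distance from the median of all genes stayed nearly as it was on library size. A call gained or lost under these scalings is therefore no result about that marker by itself. With TEV, Reln (-1.77 and -2.27), Mmrn1 (-2.03 and -2.53), Prox1 (-0.80 and -1.31) and Lyve1 (-0.70 and -1.20) were lower under both. Pdpn (-0.64 and -1.14) and Stab2 (-0.88 and -1.38) were also called lower there, as were the large shares of all genes just given. Stab1 had a log2 change with TEV of 0.16 relative to Cdh5 (edgeR adjusted p = 0.121) and -0.34 relative to the sum (0.00647), both above the median of all genes, and for TEV plus reserpine against vehicle it was -0.18 (0.0797) and -0.45 (0.00156). Emcn, which encodes the endothelial sialomucin endomucin, rose from 360 ± 6.17 to 2582 ± 138 CPM with TEV (SD, n = 2 each) and is a large part of that sum in the vesicle libraries.

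For reserpine over TEV, Stab2 (2.40 and 2.63), Mmrn1 (1.17 and 1.40), Pdpn (-2.11 and -1.88), Reln (-1.64 and -1.41) and Prox1 (-0.83 and -0.60) kept their calls relative to Cdh5 and to the sum. Lyve1 was called relative to the sum (0.44, edgeR adjusted p = 0.016) and not relative to Cdh5 (0.21, 0.12), and Stab1 was called lower relative to Cdh5 (-0.34, 0.0129). Against vehicle, Stab2 with TEV plus reserpine was higher by 1.52 and 1.25. Mmrn1 was there called lower relative to both (-0.86, edgeR adjusted p = 0.000225, and -1.13, 4.88e-05), and Lyve1 turned from 0.20 to -0.49 (0.00403) and -0.76 (0.00039). Under the same scalings the medians of all genes were -0.71 and -0.98, so that Mmrn1 lay a little below and Lyve1 a little above them.

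**Figure D5:**
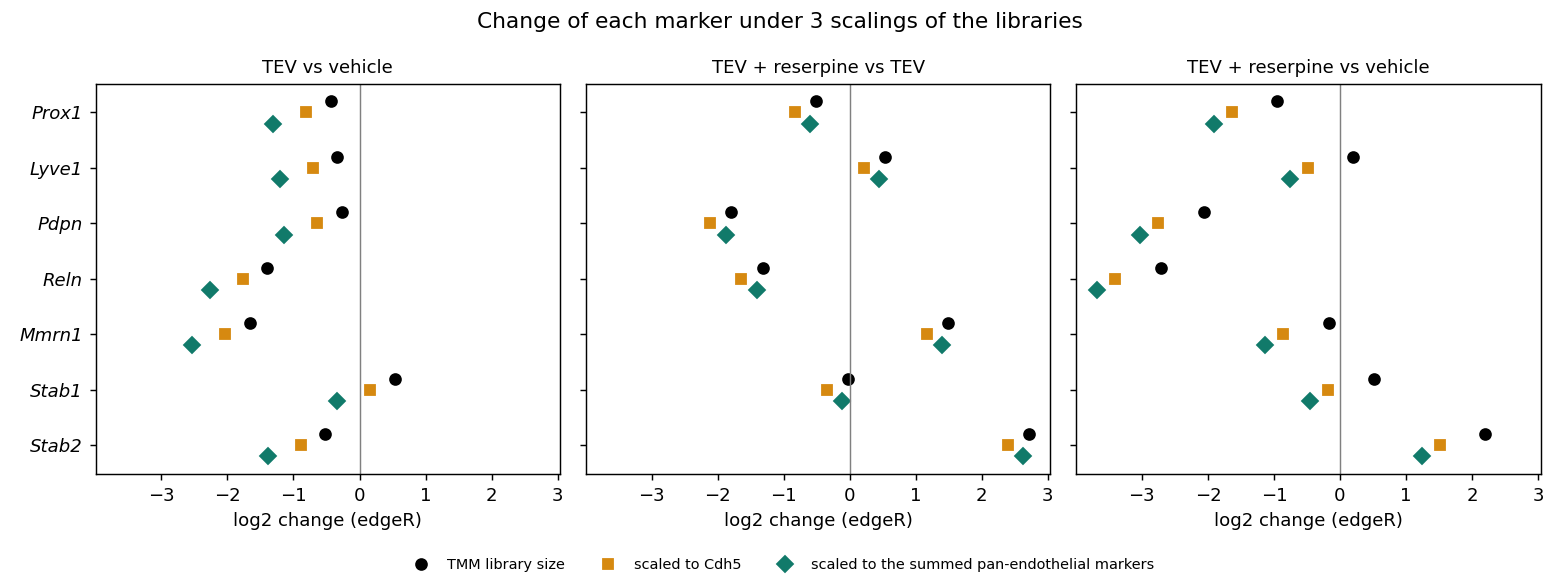
Log2 change (edgeR, horizontal axis) of each marker in 3 comparisons with libraries scaled by TMM (circles), to Cdh5 (squares) or to the summed pan-endothelial markers (diamonds). Stab1 crosses 0 between scalings in the comparisons with vehicle, Lyve1 does so for TEV plus reserpine against vehicle, and Stab2 stays right of 0 in both comparisons that involve reserpine.

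Genes that work around PROX1 and VEGF-C moved in both directions, as did all genes tested (49.7%, 31.6% and 39.1% called, in the order below). Of 18 such genes 17 were tested, and 3 were higher and 8 lower with TEV, 6 higher and 3 lower with TEV plus reserpine against TEV, and 3 higher and 6 lower with TEV plus reserpine against vehicle (medians -0.58, 0.25 and -0.13). Maf, a transcription factor expressed in lymphatic endothelium, was at 46.01 and 38.55 CPM with vehicle, 3.665 and 3.679 with TEV, and 14.61 and 14.47 with TEV plus reserpine. Its log2 change was -3.52 with TEV (edgeR adjusted p = 9.82e-06) and 1.98 with reserpine over TEV (0.000461). Ccbe1, which helps to activate VEGF-C, stepped down like Reln, from 41.2 ± 0.767 to 9.43 ± 1.63 and 4.37 ± 0.559 CPM (SD, n = 2 each). Gata2, a factor needed for lymphatic valves, rose from 24.3 ± 0.526 to 124 ± 7.18 CPM with TEV and was at 70.6 ± 6.73 with TEV plus reserpine. Hhex, a homeodomain factor upstream of Prox1, rose by 0.89 with TEV (edgeR adjusted p = 0.0022) and by a further 0.74 with reserpine (0.00901), opposite in sign to Prox1. Sox18 (-1.25, edgeR adjusted p = 0.0401) and Nr2f2 (-0.28, 0.0375), from the same list, were lower with TEV, as Prox1 was. With reserpine over TEV, where Prox1 fell, Sox18 rose (1.95, edgeR adjusted p = 0.0147) and Nr2f2 was not called (0.25, 0.0756). The TEV libraries differed widely in Sox18 (32.82 and 91.25 CPM). The flow sensor Piezo1 and the valve factor Foxc2 were not called in any comparison (log2 changes of -0.18 and 0.30 with TEV).

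Within the VEGF-C group, the genes for the growth factor, its receptor and its co-receptor were singled out after their values were seen. Flt4, which encodes VEGFR3, was not called with TEV (-0.14, edgeR adjusted p = 0.148) and was higher with TEV plus reserpine against TEV (0.38, 0.011). Its co-receptor gene Nrp2 fell by 0.58 with TEV (edgeR adjusted p = 0.000844) and rose by 0.63 with reserpine over TEV (0.00193). Vegfc, the ligand gene, fell by 1.95 with TEV (edgeR adjusted p = 0.00104) and was 0.86 higher with reserpine over TEV (0.0419). Ccbe1, another partner of VEGF-C, did not move this way and fell with reserpine over TEV (-1.09, edgeR adjusted p = 0.00517). The protease gene Adamts3 (-1.06) and the integrin gene Itga9 (-0.53) were not called there. Adamts3 was near the floor, at 0.17 CPM on average with TEV and 0.07 with TEV plus reserpine. Ccl21a, one of several near-identical genes for the chemokine by which lymphatic endothelium draws in dendritic cells, had 174 counts with vehicle, 0 with TEV and 2 with TEV plus reserpine. Against a floor of 3 counts over the TEV group it was at least 92.6-fold lower with TEV, and the shared reads of its copies leave this uncertain.

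Hyaluronan is the ligand of LYVE1 and stabilin-2, and 11 of 12 listed genes for its synthesis, breakdown and binding were tested. With TEV 3 were higher and 4 lower, and with TEV plus reserpine against TEV 4 were higher and 1 lower. For TEV plus reserpine against vehicle 4 were higher and 4 lower (medians -0.29, 0.23 and 0.17 in that order). Of all genes tested, 49.7%, 31.6% and 39.1% were called. Cd44, another hyaluronan receptor and one that fibroblasts also carry, fell from 704 ± 46.2 to 131 ± 6.52 CPM with TEV and was at 201 ± 18.5 CPM with TEV plus reserpine (SD, n = 2 each). The hyaluronidase-family gene Hyal2 was at 118 ± 2.18, 96.5 ± 18.9 and 162 ± 10.3 CPM, and rose over TEV (0.74, edgeR adjusted p = 0.00906). Vcan, whose product versican binds hyaluronan, fell with TEV plus reserpine against TEV (-0.96, edgeR adjusted p = 0.0397). Tlr4, an innate receptor that also responds to hyaluronan fragments, was higher with TEV (0.41, edgeR adjusted p = 0.0304). Of the synthase genes, Has3 was not called in any comparison, but Has2 (-3.865, edgeR adjusted p = 0.00034) and Has1 (-1.723, 0.00747) were lower with TEV. Both were also lower with TEV plus reserpine against vehicle (-4.083 and -2.99), and neither was called for reserpine over TEV. Has2 averaged 20.2 CPM with vehicle and Has1 only 1.83.

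Other scavenger and endocytic receptors moved in both directions, as all genes tested did, of which 49.7%, 31.6% and 39.1% were called in the comparisons below. Of 15 listed genes 12 were tested, and 3 were higher and 5 lower with TEV, 2 higher and 1 lower with TEV plus reserpine against TEV, and 4 higher and 4 lower against vehicle (medians -2.06, 0.63 and -0.97). Mertk, a receptor for apoptotic cells, rose from 68.7 ± 7.56 to 543 ± 49.5 CPM with TEV and was at 258 ± 7.47 with TEV plus reserpine (SD, n = 2 each). Scarb1, the HDL receptor, rose by 0.52 with TEV (edgeR adjusted p = 0.00268) and by 0.36 more with reserpine (0.0212). Colec12, a scavenger receptor with a collagen-like stalk, fell from 128 ± 1.29 to 25.2 ± 1.19 CPM and was at 47.1 ± 2.26 with TEV plus reserpine. Lrp1, a broad endocytic receptor that is abundant on fibroblasts, was at 1460 CPM on average with vehicle, 23.7 with TEV and 29.6 with TEV plus reserpine. Scarf1, a scavenger receptor of endothelium, had calls like those of Stab1, with 0.94 with TEV (edgeR adjusted p = 0.000536), 0.24 for reserpine over TEV (0.118) and 1.18 against vehicle (0.000316). The scavenger receptors Marco and Cd36 were not called in any comparison.

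Of 9 genes for partners of reelin and podoplanin and the multimerin paralog, 1 was higher and 2 lower with TEV. With reserpine over TEV 3 were higher, and against vehicle 2 were higher and 1 lower (medians 0.11, 0.24 and 0.09 in that order). The shares of all genes tested that were called were 49.7%, 31.6% and 39.1%. Vldlr, a receptor for reelin, fell from 102 ± 9.72 to 17.3 ± 4.79 CPM with TEV and was at 51.1 ± 5.89 with TEV plus reserpine (SD, n = 2 each). Its log2 change was -2.55 with TEV (edgeR adjusted p = 0.000123) and 1.56 with reserpine over TEV (0.00257). Vldlr and Reln thus changed in the same direction with TEV and in opposite directions with reserpine. Lrp8, another reelin receptor gene of the list, was not called with TEV (-0.33, edgeR adjusted p = 0.202) or with reserpine over TEV (0.50, 0.0979). Msn, encoding moesin, which ties podoplanin to the actin cortex, rose by 0.22 with TEV (edgeR adjusted p = 0.0242). Lgals8, whose product galectin-8 binds podoplanin, fell by 0.40 with TEV (edgeR adjusted p = 0.0207) and rose by 0.49 with reserpine (0.0165). The genes of the membrane proteins Cd9 and ezrin (Ezr) were not called in any comparison.

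The genes whose profiles lay closest to each marker were found over the 6 libraries as the smallest root mean square difference of centred log2 CPM. For Stab2 the closest was Nrarp (difference 0.119, Pearson r = 0.998), followed by Cx3cl1 (0.276) and Pif1 (0.348). For Mmrn1 they were Lipt2 (0.0561), Cd109 (0.0635) and Mb21d2 (0.0832), and for Reln they were Stx1a (0.114), Vasn (0.155) and Gm5345 (0.168). Pdpn lay closest to mt-Co3 (0.144), Celsr2 (0.148) and Ankrd37 (0.167), where mt-Co3 has nuclear copies that can share its reads. Prox1 lay closest to Hdac5 (0.0820), Slc46a1 (0.0831) and BC030336 (0.0857), Lyve1 to Fahd2a (0.0346), Fbxo45 (0.0348) and Cd81 (0.0353), and Stab1 to Kctd17 (0.0377), Ptprk (0.0403) and Tle4 (0.0507). With 6 libraries in 3 groups and 15035 genes, close profiles of this kind arise easily, so the likeness is a description only. Of these 21 neighbours, 19 were found again with a prior count of 0.5 in place of 2.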

How the data were processed

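RNA was sequenced from 6 polyA libraries in 75 bp single-end reads, per the labels. The submitters' processing notes name kallisto 0.45.0, R 4.0.0, edgeR and limma. The deposited raw table holds estimated counts per gene symbol, in which 1 read is worth 0.99 to 1.01. Of all values 61.2% were not whole, and of the values above 0 this was 100%. The deposited filtered table of 13098 genes repeats these values unchanged, with no further normalization. The notes name the human build GRCh38 although the symbols are of mouse genes. The count tables carry no coordinates, and positions here come from GENCODE M21 (GRCm38). No source used here gives the strand setting.

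Estimated counts were rounded, filtered with filterByExpr, scaled by TMM (factors 0.941 to 1.04) and tested with edgeR 4.0.16 (quasi-likelihood) in R 4.3.3, with the 6 libraries in 1 fit that leaves 3 residual degrees of freedom. The code was tested on simulated data. SEs are the log2 change over the root of the F statistic. Alternatives used DESeq2 1.42.0, limma 3.58.1, other scalings and filters, thinned counts, a replicate block and libraries left out. RefSeq promoters matched 6 of 7 markers.

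The markers and gene lists were chosen with earlier results of these data known. Genes named from each list were up to 4 with the most calls and up to 2 without a call, and the 3 nearest profiles are given per marker. Flt4, Nrp2, Vegfc, Ccl21a, Adamts3, Itga9, Scarf1, Has1, Has2, Sox18, Nr2f2, Lrp8 and the 5 endothelial markers lower with TEV, with Pecam1, were added after their values were seen.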

Additional observations from a re-analysis of the deposited data

How the results depend on the processing

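Of 315 values of the 7 markers under 15 other settings, 301 kept direction and side of the threshold, 8 lost a call, 3 gained one and 3 changed sign. All 3 changes of sign were in Stab1 for TEV plus reserpine against TEV, which was 0.058 with library size alone and -0.076 to 0.04 with 1 library left out, against -0.021 with all. All 8 lost calls came from leaving out a library and were in Prox1 and Lyve1. Leaving out 1 library gave 2 to 4 markers lower with TEV, with 2 without vehicle replicate 1. Relative to endothelial markers, the changes of sign were those of Stab1 (-0.338 with TEV, -0.45 with TEV plus reserpine against vehicle, and -0.179 for the latter relative to Cdh5) and Lyve1 (-0.758 and -0.487 for TEV plus reserpine against vehicle). Over all genes, leaving out 1 library gave 1049 to 2177 higher and 1075 to 2138 lower for TEV plus reserpine against TEV (2354 and 2403 with all libraries, fewest without TEV replicate 1), and 1800 to 2977 higher and 1772 to 2980 lower for TEV plus reserpine against vehicle (2879 and 2994, fewest without vehicle replicate 1). The lone library of a group is then assumed to vary like the other groups. With library size alone, 39.8% of the calls with TEV were higher, against 50.5% with TMM. By the numbers in the sample titles, which differ from the column numbers of both vesicle groups, same-numbered libraries did not deviate together (r = -0.079 to 0.014 across genes), and with the replicate number as a block 3438 genes were higher and 3426 lower with TEV, with 1 marker higher and 4 lower. No marker call changed under the replicate block. Depth limits Stab2 most, at 65.8 estimated counts in its lowest library.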
